A study of Mus musculus with 6 samples.

Results

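Genes of zinc binding and zinc transport were followed in the RNA of mouse brainstem motor neurons. They were 9 genes chosen by name, of 18193 genes with a probe set of their own: the metallothioneins Mt1, Mt2 and Mt3, the metal sensor Mtf1, the zinc exporters Slc30a1, Slc30a3 and Slc30a4, and the zinc importers Slc39a10 and Slc39a14. Every probe set that the platform annotation pairs with exactly 1 of these symbols was taken, which gave 19 of the 45037 probe sets that were not controls (34945 of these had 1 symbol). All 9 genes had at least 1 probe set, from 1 each for 4 genes to 5 for Mtf1, and probe sets of 1 gene are not independent of each other. The samples were 3 wild-type (WT) and 3 SOD1 RNA samples, 1 array each, with no other treatment named. SOD1 names the copper-zinc superoxide dismutase, a protein that itself binds zinc. The sources used here do not give the allele of the SOD1 mice, its promoter, their age, or whether a sample pooled animals. They also do not say whether replicates are different animals, so a p-value reflects the spread among these RNA samples alone, which may be technical.

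Metallothioneins are small, cysteine-rich proteins that hold zinc and copper. When free zinc rises in a cell, the zinc-finger factor MTF-1 enters the nucleus and binds metal response elements in the promoters of Mt1, Mt2 and the exporter gene Slc30a1. Transporters of the SLC30 family move zinc out of the cytosol, across the cell membrane or into vesicles, and those of the SLC39 family move it in. In the brain, Mt1 and Mt2 are known mainly from astrocytes, where glucocorticoids and cytokines also induce them. Mt3 is found in neurons and astrocytes and does not respond to metals as Mt1 and Mt2 do, and Slc30a3 loads zinc into vesicles of glutamatergic synapses.

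The promoters are shown because the metal sensor acts through a short element that can be searched for in them. The core of the metal response element was searched as TGCACNC or TGCGCNC on both strands of the RefSeq promoter windows (GRCm38.p6), which run from 250 bases before to 50 bases after each annotated start. The 2 spellings cannot match at the same position. Of 32851 windows, 25.7% held at least 1 match and 7.11% at least 2. The Mt2 window held 4 matches, a number reached by 0.517% of windows, and the Mt1 and Slc30a4 windows held 3 each, a number reached by 1.97%. The Slc30a1 window held 2, the Mt3 window and 1 of the 2 windows of Slc30a3 held 1 each, and those of Mtf1 and Slc39a10 held 0. No window was available for Slc39a14. The 250 bases before the start of Mt1 and Mt2 follow, from 5′ to 3′, and then single sites from the windows of Mt1, Mt3, Slc30a1 and Slc30a4. Capitals mark the matches, and a match on the opposite strand reads as its reverse complement.
Mt1 promoter, chr8:94178839-94179088, + strand: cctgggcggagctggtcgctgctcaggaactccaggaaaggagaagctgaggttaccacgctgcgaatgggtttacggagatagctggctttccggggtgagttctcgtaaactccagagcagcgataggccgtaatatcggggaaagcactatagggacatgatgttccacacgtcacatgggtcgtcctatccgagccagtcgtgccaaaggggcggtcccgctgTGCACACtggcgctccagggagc
Mt2 promoter, chr8:94172368-94172617, + strand: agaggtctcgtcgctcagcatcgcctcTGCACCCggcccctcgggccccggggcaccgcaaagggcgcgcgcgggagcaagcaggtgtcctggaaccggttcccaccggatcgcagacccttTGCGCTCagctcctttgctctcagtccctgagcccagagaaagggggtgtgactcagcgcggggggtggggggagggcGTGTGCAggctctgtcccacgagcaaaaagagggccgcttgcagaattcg
Mt1 site, chr8:94179098-94179126, + strand: cgcccgaaaagTGCGCTCggctctgccaa
Mt3 site, chr8:94152623-94152651, + strand: cgggacagcagTGCACACacacggagagc
Slc30a1 site, chr1:191906727-191906755, + strand: acgggggttccGAGTGCAaagcaaagttt
Slc30a1 site, chr1:191906800-191906828, + strand: gcctccgggccGAGCGCAgtcgccgcgga
Slc30a4 site, chr2:122702738-122702766, - strand: tcgcgcctcgcGGGCGCAcgcgccgcctc
These matches describe letters in the windows and say nothing of binding in these samples, and the annotated start need not be the one used in these cells. Elements outside the windows were not searched, so a low count does not show that a gene lacks the element. In the RefSeq gene order Mt4, Mt3, Mt2 and Mt1 lie in this sequence on mouse chromosome 8.

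The metal-inducible metallothioneins Mt1 (on its brighter probe set) and Mt2 read 2.18-fold and 2.81-fold higher in SOD1 than in WT on average, and the vesicular exporter gene Slc30a4 1.54-fold higher, with every SOD1 array above every WT array. The brighter probe set of Slc30a1, the exporter of the cell membrane, read 1.39-fold lower in SOD1, again without overlap. Such a lack of overlap was common: of all probe sets tested, 10.5% had every SOD1 array above every WT array and 9.81% below. Mt3, Mtf1, Slc30a3, Slc39a10 and Slc39a14 had overlapping groups on every probe set. None of the 15 member probe sets tested passed the threshold of 0.05 (limma, Benjamini-Hochberg over 27022 probe sets), and the smallest adjusted p was 0.151. Of the 15, 3 had an unadjusted p under 0.05 by limma, against 14.7% of all probe sets tested. Over the whole array 0.185% of probe sets were called, 17 higher in SOD1 (0.0629%) and 33 lower (0.122%). The share of higher calls was 34%, and it became 46.3% with median centring, 64.7% of 17 calls for gene means, 66.7% of 9 calls without WT replicate 1, 5.71% of 35 without SOD1 replicate 1 and 0% of 6 without SOD1 replicate 2. The majority of calls thus turned to higher in SOD1 only for gene means and without WT replicate 1. In every other setting with any calls most were lower, and the share of higher calls was at most 47.4% (replicate block).

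Values are log2 of the quantile-normalised signal plus 16, which understates differences of low probe sets, and differences are SOD1 minus WT, in log2, ± SE with 3 arrays per group. A level of 1 probe set cannot be set against that of another. Of the 19 member probe sets, 15 lay above the filter on low signal, at least 1 for each gene, and 4 were below it. Those with an unadjusted p under 0.05 were 3 higher in SOD1 (7.09% of all tested) and 0 lower (7.58%), against 14.7% of all tested in either direction. In 3 of the 15 all SOD1 arrays lay above all WT arrays (10.5% of all tested), and in 1 they lay below (9.81% of all tested). The estimate was positive for 13 of the 15 and negative for 2, against 49.5% positive over all tested. The dim probe sets of Mt1 (1451612_at) and Slc30a1 (1422786_at), both positive, had WT means below the filter level of 7.38. They were tested only through their SOD1 signal. The 4 probe sets below the filter, which were not tested, all had negative differences, from -1.50 to -0.27. The median difference was 0.48 over the 15 and -0.0065 over all probe sets tested. Without WT replicate 3 the estimate was positive for 9 of the 15 and negative for 6, with a median of 0.24, and without SOD1 replicate 1 the median was 0.32. The median was 0.72 without WT replicate 1.

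**Figure D1:**
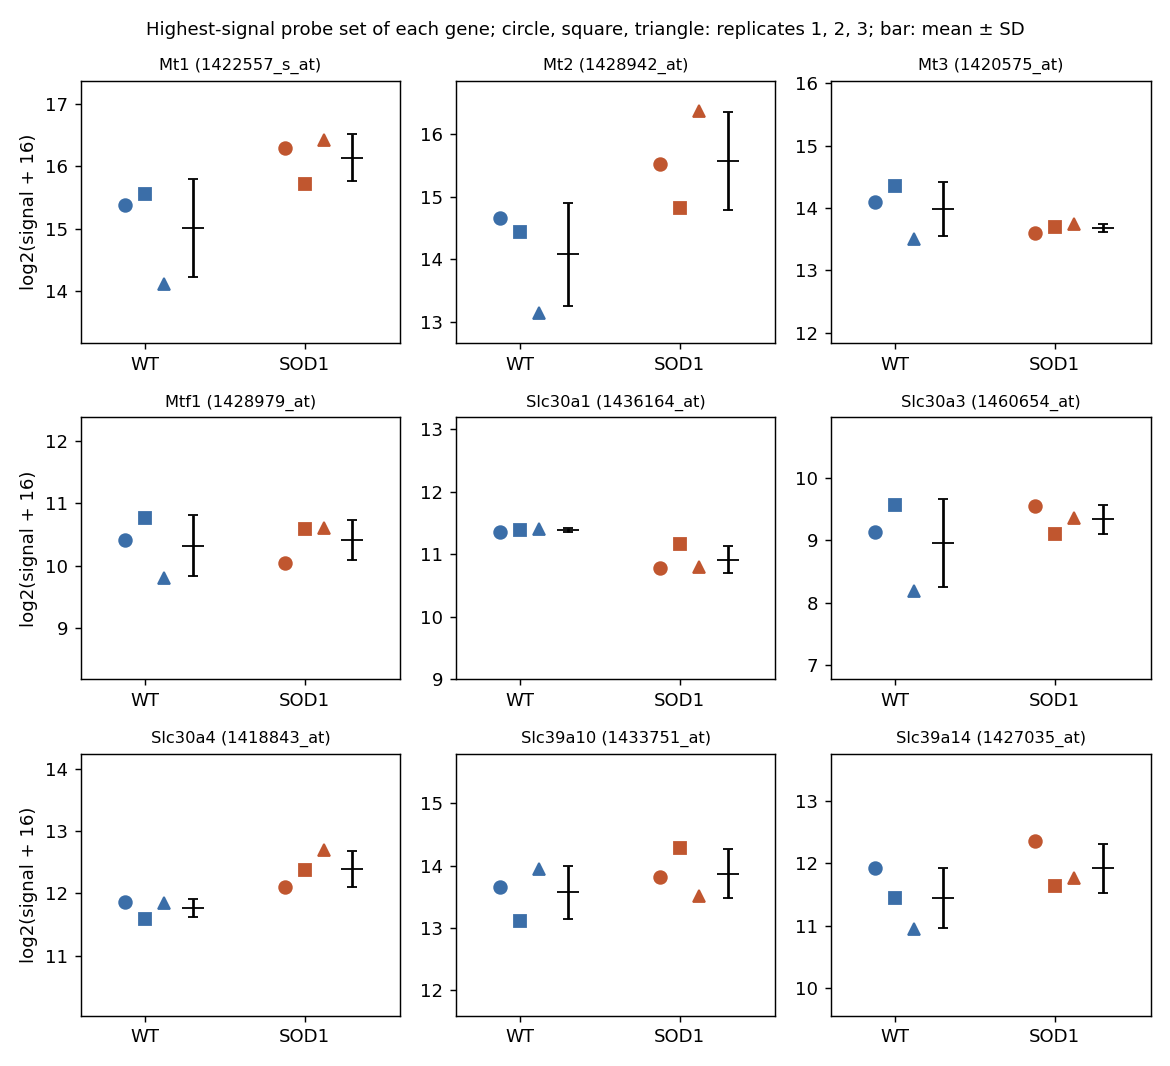
Signal of the highest-signal probe set of each of the 9 genes on every array, in log2(signal + 16), with WT at left and SOD1 at right. Circles, squares and triangles are replicates 1, 2 and 3, the bar is the mean ± SD, and every panel spans the same log2 height. Mt1, Mt2 and Slc30a4 had all 3 SOD1 arrays above the WT arrays, and Slc30a1 had them below.

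The 6 arrays had median deposited signals of 267 to 315, and their number limits the precision. Motor neuron markers were present, with an 11-gene mean of 13.98 to 14.09 in WT and 13.72 to 13.89 in SOD1. Glial and vascular markers were measured too, and fewer cells of a type and less RNA per cell cannot be told apart in such samples. On the highest-signal Sod1 probe set WT was at 16.51 ± 0.17 and SOD1 at 16.78 ± 0.08 (SD, n = 3), and since a mouse probe set need not read a human transcript this does not check the genotype. Xist, a transcript of the inactive X chromosome, was at 14.71 and 14.63 in SOD1 replicates 1 and 2, against 7.27 to 7.75 on the other 4 arrays, so sex may differ between and within the groups. WT replicate 3 also stood apart for these genes: it was the lowest of the 6 arrays for 9 of the 15 tested member probe sets (60%), against 18.9% of all probe sets tested. SOD1 replicate 3 was the highest for 6 of the 15 (40%), against 19.9% of all tested.

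Mt1 and Mt2, the metal-inducible metallothioneins, had higher signals on every SOD1 array than on any WT array, although neither passed the test over all probe sets. The highest-signal Mt1 probe set (1422557_s_at, whose suffix marks probes that can match several transcripts) read 15.38, 15.55 and 14.12 in WT replicates 1, 2 and 3, and 16.30, 15.71 and 16.42 in SOD1 replicates 1, 2 and 3. The lowest SOD1 array was thus only 0.16 above the highest WT array, and WT replicate 3 was far below the other WT arrays. The deposited signals ran from 17683.2 to 46273.4 in WT and from 56085.7 to 91936.5 in SOD1. The difference was 1.13 ± 0.32, a mean 2.18-fold higher in SOD1 (limma, adjusted p = 0.156, 95% interval without adjustment 0.43 to 1.83). Without WT replicate 3 it was 0.67 ± 0.19 (limma, adjusted p = 0.173).

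A second Mt1 probe set (1451612_at) had a low signal. It read 8.11, 7.69 and 5.45 in WT replicates 1, 2 and 3 and 8.27, 7.98 and 9.78 in SOD1 replicates 1, 2 and 3. The groups overlapped, and WT replicate 3 was below background, a level set for each array at the 95th percentile of its 27 bacterial controls (7.21 to 7.61). The difference was 1.59 ± 0.79 (limma, adjusted p = 0.378), and 0.77 without WT replicate 3. The WT mean of 7.08 was below the filter level of 7.38, so this probe set was tested only through its SOD1 signal. Its sign therefore adds nothing to that of the brighter probe set.

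Mt2 had 1 probe set (1428942_at). It read 14.67, 14.44 and 13.14 in WT replicates 1, 2 and 3, and 15.53, 14.82 and 16.37 in SOD1 replicates 1, 2 and 3. SOD1 replicate 2 lay close to the upper WT arrays, WT replicate 3 was the lowest and SOD1 replicate 3 the highest. The deposited signal of SOD1 replicate 3 was 88766.3, and those of WT were 9247.09 to 25662.7. The difference was 1.49 ± 0.41, a mean 2.81-fold higher in SOD1 (limma, adjusted p = 0.151, 95% interval without adjustment 0.59 to 2.39). It was 1.02 ± 0.34 without WT replicate 3 and 1.08 ± 0.40 without SOD1 replicate 3 (limma, adjusted p = 0.226 and 0.364).

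Mt1 and Mt2 did not depend on the arrays with high Xist for their sign. With Xist as a term the differences were 1.35 ± 0.46 for Mt1 (1422557_s_at) and 2.21 ± 0.51 for Mt2 (limma, adjusted p = 0.232 and 0.116). With SOD1 replicate 3 as the only SOD1 array, assumed to vary like the others, they were 1.37 ± 0.48 and 2.25 ± 0.51 (limma, adjusted p = 0.248 and 0.125). Since only SOD1 replicates 1 and 2 had high Xist, both settings in effect set SOD1 replicate 3 alone against WT. That array was the highest for both genes, so they read Mt1 and Mt2 from an SOD1 arm of 1 extreme array.

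Mt3, the growth inhibitory metallothionein of the nervous system, did not share the direction of Mt1 and Mt2. Its probe set read 14.09, 14.36 and 13.51 in WT replicates 1, 2 and 3, and 13.60, 13.70 and 13.74 in SOD1 replicates 1, 2 and 3. The SOD1 arrays lay within 0.14 of each other, inside the WT range. The difference was -0.31 ± 0.22 (limma, adjusted p = 0.549, 95% interval without adjustment -0.78 to 0.17). Over the 20 settings tried it ranged from -0.55 without WT replicate 3 to -0.12 without WT replicate 2. Several of these settings repeat the main estimate, since they change only the error or the filter. The intervals of Mt2 and Mt3 do not overlap, but the difference between the genes was not tested. The fourth metallothionein gene, Mt4, known from stratified epithelia, lay below the filter, at 4.76 to 6.57 in WT and 4.54 to 7.03 in SOD1, under the background level on all 6 arrays.

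Mtf1, the zinc sensor that activates the metallothionein promoters, had 5 probe sets. Of these 3 were tested and 0 passed. The probe set with the highest signal (1428979_at) read 10.41, 10.76 and 9.80 in WT replicates 1, 2 and 3 and 10.04, 10.58 and 10.61 in SOD1 replicates 1, 2 and 3. The groups overlapped, and the difference was 0.089 ± 0.35 (limma, adjusted p = 0.932, 95% interval without adjustment -0.68 to 0.86). A dimmer one (1418333_at) gave 0.16 ± 0.35, and the dimmest tested (1429170_a_at) 0.91 ± 0.80 with WT replicate 3 at 5.84, below background, against 8.89 and 9.49 on the other WT arrays. Without that array the latter gave -0.20. The 2 probe sets below the filter (1440414_at and 1452990_at) had means of 6.54 and 5.71 over the 6 arrays, above background on 1 array and on 0 arrays. Their untested differences were -0.87 and -0.27.

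Slc30a1 encodes ZnT1, the exporter of the cell membrane and, like the metallothioneins, an MTF-1 target. Its brighter probe set (1436164_at) read 11.35, 11.39 and 11.41 in WT replicates 1, 2 and 3, and 10.78, 11.17 and 10.80 in SOD1 replicates 1, 2 and 3. All SOD1 arrays lay below the WT arrays, which were within 0.06 of each other. The difference was -0.47 ± 0.27, a direction opposite to that of Mt1 and Mt2 (limma, adjusted p = 0.441, 95% interval without adjustment -1.06 to 0.11). The other Slc30a1 probe set (1422786_at) pointed the other way, at 1.14 ± 0.69 (limma, adjusted p = 0.475). That probe set was dim, at 6.09 to 7.59 in WT, where 1 of 3 arrays exceeded background. In SOD1 it was at 7.46 to 8.90, and 3 of 3 did. The WT mean of 6.91 was below the filter level of 7.38, so it was tested only through its SOD1 signal. Averaging both probe sets gave 0.33 ± 0.35, so the sign for the gene depends on which is read.

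The exporters of vesicles were both positive in their estimates. Slc30a4 encodes ZnT4, found on endosomes, lysosomes and secretory vesicles. It read 11.87, 11.59 and 11.84 in WT replicates 1, 2 and 3, and 12.11, 12.37 and 12.69 in SOD1 replicates 1, 2 and 3, with no overlap of the groups. The difference was 0.62 ± 0.25, a mean 1.54-fold higher in SOD1 (limma, adjusted p = 0.278, 95% interval without adjustment 0.08 to 1.16). Over the 20 settings tried it ranged from 0.47 without SOD1 replicate 3 to 0.91 with the Xist term. Several of these settings change only the error or the filter and so repeat the main estimate.

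Slc30a3, the synaptic vesicle transporter ZnT3, read 9.13, 9.56 and 8.18 in WT replicates 1, 2 and 3, and 9.55, 9.10 and 9.36 in SOD1 replicates 1, 2 and 3. The groups overlapped, with WT replicate 3 alone below the rest. The difference of 0.38 ± 0.44 (limma, adjusted p = 0.732) was -0.010 without that array. Slc17a7, the vesicular glutamate transporter of the synapses where ZnT3 is best known, was below the filter, at 5.10 to 7.43 in WT and 6.10 to 7.63 in SOD1.

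**Figure D2:**
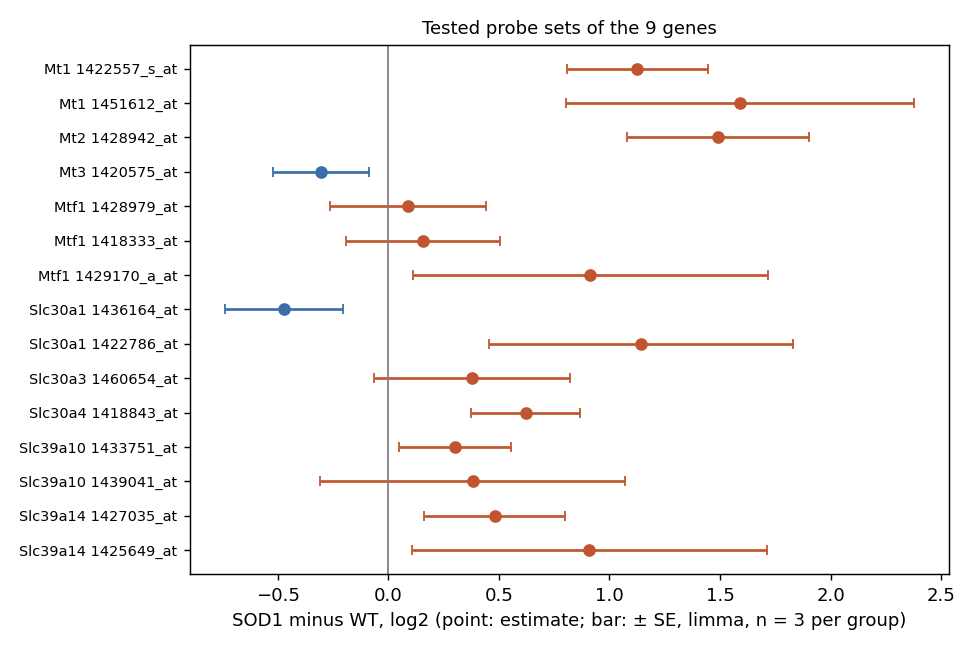
SOD1 minus WT difference (x axis, log2) of the 15 tested probe sets of the 9 genes, listed on the y axis; points are limma estimates and bars are ± SE (n = 3 arrays per group). The estimate was positive for 13 and negative for Mt3 and the brighter Slc30a1 probe set, and 0 of the 15 passed the threshold.

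Both importers had positive estimates on their brighter probe set. Slc39a14 encodes ZIP14, an importer of zinc, iron and manganese that is induced by interleukin-6. It read 11.92, 11.45 and 10.96 in WT replicates 1, 2 and 3, and 12.37, 11.64 and 11.77 in SOD1 replicates 1, 2 and 3 (1427035_at), so that WT replicate 1 lay above 2 SOD1 arrays. The difference was 0.48 ± 0.32 (limma, adjusted p = 0.520, 95% interval without adjustment -0.22 to 1.18), and 0.24 without WT replicate 3. A second probe set (1425649_at) gave 0.91 ± 0.80 with WT replicate 3 at 5.40, below background, and -0.093 without it. The other 2 (1457770_at and 1438490_at) were below the filter, above background on 2 of 3 WT arrays and 0 of 3 SOD1 arrays each. Their untested differences were -1.24 and -1.50.

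Slc39a10 encodes ZIP10, an importer of the cell membrane whose gene MTF-1 is known to repress. Its brighter probe set (1433751_at) read 13.67, 13.11 and 13.95 in WT replicates 1, 2 and 3, and 13.82, 14.28 and 13.52 in SOD1 replicates 1, 2 and 3, with overlap. The difference was 0.30 ± 0.25 (limma, adjusted p = 0.623, 95% interval without adjustment -0.26 to 0.86). It was -0.033 with the Xist term and -0.059 with SOD1 replicate 3 as the only SOD1 array. The dim probe set (1439041_at) gave 0.38 ± 0.69.

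Of the other zinc exporters, 4 of 7 genes were tested and 0 of 5 probe sets passed, with all 4 genes positive on their brightest probe set and a median of 0.25 (0.16 without SOD1 replicate 3, 0.45 without WT replicate 3 and 0.51 with the Xist term). Slc30a7 had the smallest p of the group on a dimmer probe set, at 8.90 ± 0.50 in WT and 9.79 ± 0.35 in SOD1 (SD, n = 3), while its brighter one gave 0.18 ± 0.42. Slc30a6 was at 0.47 ± 0.34 and Slc30a5 at 0.32 ± 0.32, a pair whose products move zinc into the secretory pathway. Of the other importers, 9 of 12 genes were tested and 0 of 12 probe sets passed, with 4 genes positive, 5 negative and a median of -0.11 (-0.030 without WT replicate 2). Slc39a12, an importer enriched in astrocytes, read 12.58, 12.22 and 12.08 in WT replicates 1, 2 and 3 and 12.77, 12.82 and 12.99 in SOD1 replicates 1, 2 and 3. Its groups did not overlap, and the difference was 0.56 ± 0.22 (limma, adjusted p = 0.276). Slc39a7, which releases zinc from the endoplasmic reticulum, was at -0.41 ± 0.19 with no overlap of the groups. Slc39a6 gave -0.61 ± 0.29 on 1 probe set and 0.19 ± 0.21 on its brighter one.

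**Figure D3:**
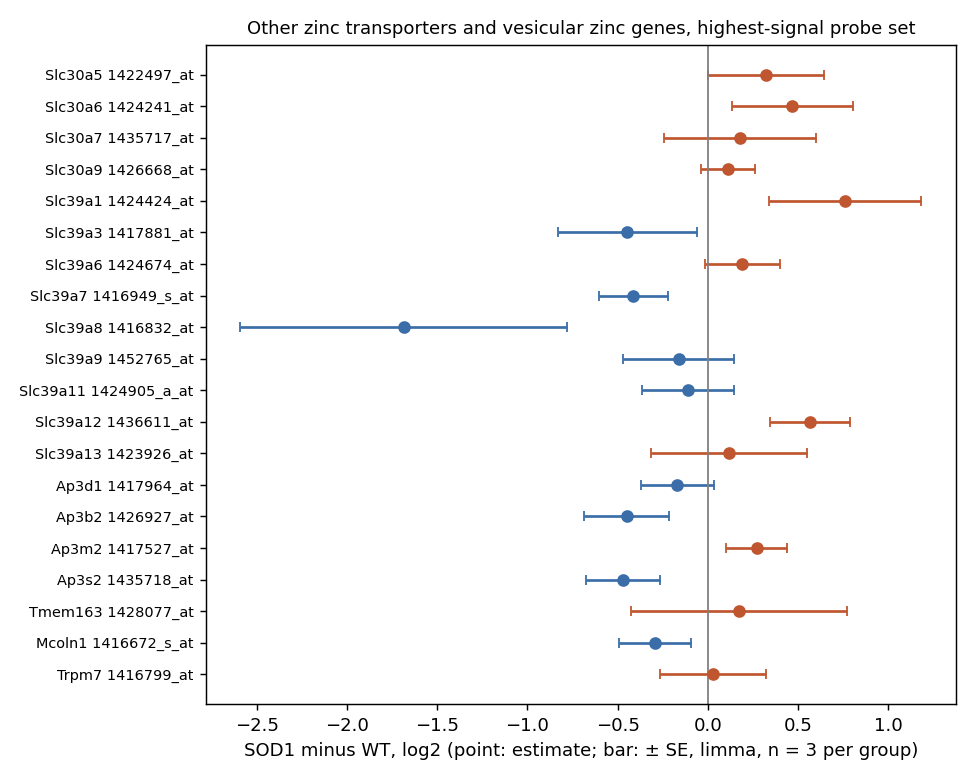
SOD1 minus WT difference (x axis, log2) of the highest-signal probe set of the 13 other zinc transporter genes tested and of 7 vesicular and lysosomal zinc genes, listed on the y axis; points are limma estimates and bars ± SE (n = 3 arrays per group). The 4 exporters were positive, the 9 importers were mixed, and none of the genes passed the threshold.

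Genes of vesicular and lysosomal zinc had 7 of 9 members tested, with 3 positive, 4 negative, a median of -0.17 and 0 of 17 probe sets past the threshold. Of the probe sets, 4 had an unadjusted p under 0.05, against 14.7% of all probe sets tested. Mcoln1, the lysosomal cation channel TRPML1, was at -0.73 ± 0.24 on 1 probe set and -0.29 ± 0.20 on its brighter one. Ap3s2, of the AP-3 coat that sorts ZnT3 to synaptic vesicles, was at -0.66 ± 0.28 on 1 probe set and -0.47 ± 0.20 on its brightest, and its 5 tested probe sets reached from -0.66 to 0.42. Trpm7, a zinc-permeable channel kinase, was at 1.42 ± 0.55 on a dim probe set and 0.029 ± 0.29 on its brightest. The median of the list depended on the setting, at -0.014 with median centring, 0.029 with no filter, and from -0.25 without WT replicate 2 to -0.0047 without SOD1 replicate 1.

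Other genes induced by metals or oxidants had estimates of both signs. Past the threshold were 0 of 21 probe sets, and 2 had an unadjusted p under 0.05 by limma, against 14.7% of all tested. All 11 genes were tested, with 4 positive, 7 negative and a median of -0.065. The sign of this median turned in several settings, to 0.16 without WT replicate 1, 0.11 without WT replicate 2, 0.051 without SOD1 replicate 2, 0.11 without SOD1 replicate 3, 0.043 with median centring and 0.17 for gene means. Without SOD1 replicate 1 it was -0.18. Hmox1, heme oxygenase, a stress gene that cadmium also induces, read 7.41, 8.11 and 5.52 in WT replicates 1, 2 and 3. In SOD1 replicates 1, 2 and 3 it read 9.27, 8.36 and 8.36, a difference of 1.65 ± 0.72 (limma, adjusted p = 0.324). WT replicate 3 was below background. The WT mean of 7.02 was below the filter level of 7.38, so Hmox1 was tested only through its SOD1 signal. Gclm, the modifier subunit of glutathione synthesis, was at -0.26 ± 0.13 (0.44 ± 0.36 on a dimmer probe set), and Txnrd1, thioredoxin reductase, at 0.95 ± 0.33 on 1 probe set and -0.31 ± 0.29 on its brightest. The heat-shock genes Hspa1a and Hspa1b were at -0.072 ± 0.34 and -0.065 ± 0.57.

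Genes induced by glucocorticoids, which also induce Mt1 and Mt2, were split: of 12, 6 were positive and 6 negative, with a median of 0.12. Past the threshold were 0 of 29 probe sets, and 3 had an unadjusted p under 0.05 by limma, against 14.7% of all tested. The median of the 12 genes was -0.022 without WT replicate 1, -0.050 without WT replicate 3 and -0.0059 without SOD1 replicate 3, and 0.19 without SOD1 replicate 2. Their list mean was highest on SOD1 replicate 3, at 13.40, against 12.77 and 12.53 on the other SOD1 arrays and 12.22 to 12.89 in WT. Sgk1, a kinase gene with the smallest p of this list, read 13.73, 13.50 and 13.08 in WT replicates 1, 2 and 3. In SOD1 replicates 1, 2 and 3 it read 14.58, 13.95 and 15.87. Mt2 had the same order of arrays, but how many of all probe sets share this order was not counted, and a link was not tested. The Sgk1 difference was 1.36 ± 0.39 (limma, adjusted p = 0.156). It was 2.37 with the Xist term and 2.40 with SOD1 replicate 3 as the only SOD1 array, settings that both rest on that 1 array, the highest for Sgk1. Klf9 was at 0.56 ± 0.20 on 1 probe set, -0.27 ± 0.21 on its brightest and -1.06 ± 0.46 on another, Pdk4 at 1.69 ± 0.83, and the classical targets Fkbp5 and Tsc22d3 at -0.010 ± 0.22 and -0.17 ± 0.18. The STAT3 and acute-phase list, 10 genes with 6 positive, 4 negative and a median of 0.35, had 0 of 15 probe sets past the threshold. An unadjusted p under 0.05 by limma was found for 3 of the 15, against 14.7% of all tested. In that list Timp1 was at 2.05 ± 0.69, Socs3, the feedback inhibitor of the pathway, at 1.10 ± 0.42 and 1.24 ± 0.56 on 2 of 3 probe sets and -0.28 ± 0.77 on the other, and Serpina3n at -0.36 ± 0.22. The median of the list was -0.087 without WT replicate 3 and -0.10 without SOD1 replicate 3, and 0.12 without WT replicate 2.

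Astrocyte markers were also higher in SOD1, on every array as a list mean. All 15 genes of the list were tested, 12 positive and 3 negative, with a median of 0.34 (0.10 without WT replicate 3). Of 32 probe sets 2 passed, both higher in SOD1, against 0.0629% of all tested called higher. Gfap (1440142_s_at), the astrocyte intermediate filament, was higher by 3.38 ± 0.47 and Aqp4 (1434449_at), a water channel, by 1.61 ± 0.22 (limma, adjusted p = 0.0317 for both). The list mean was 12.98, 12.79 and 12.41 in WT replicates 1, 2 and 3 and 13.38, 13.29 and 13.19 in SOD1 replicates 1, 2 and 3, a difference of 0.56 (exact permutation p = 0.1, two-sided, the smallest that 3 against 3 allows). The summed signal of the list was 262390 to 304240 in WT and 325880 to 337870 in SOD1. WT replicate 3 was the lowest array for the list and for Mt1 and Mt2, but within SOD1 replicate 3 was the lowest for the list and the highest for Mt1 and Mt2. The part of astrocyte RNA in the values of Mt1 and Mt2 was not tested.

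**Figure D4:**
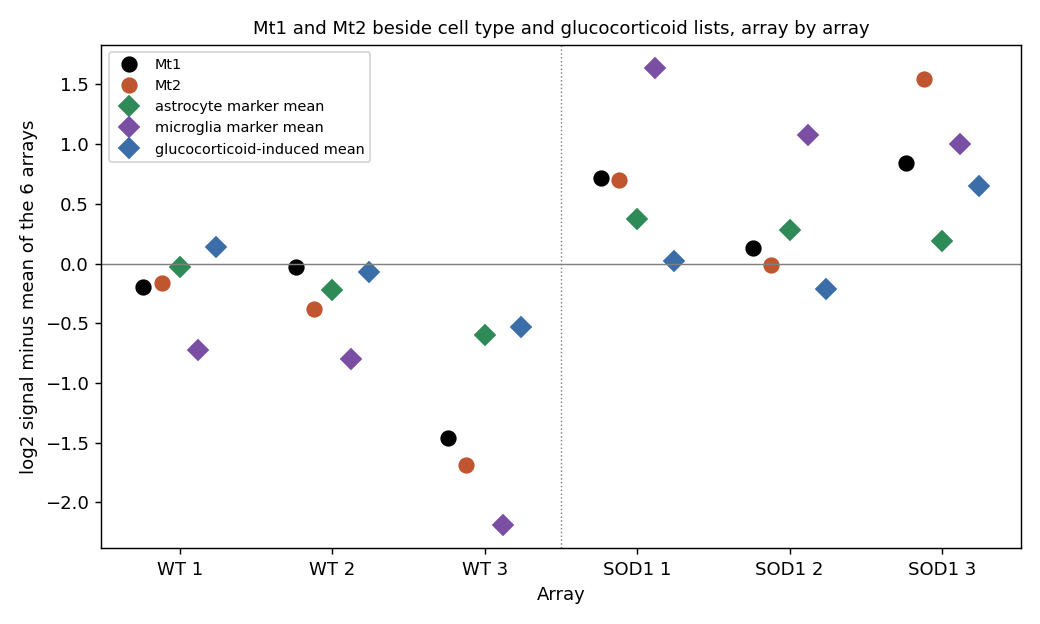
Mt1 (1422557_s_at) and Mt2 (circles) and the mean of the astrocyte, microglia and glucocorticoid-induced lists (diamonds) on each array, as log2 signal minus the mean of that measure over the 6 arrays (y axis), with arrays on the x axis and the dotted line between WT and SOD1. WT replicate 3 was the lowest array for all 5 measures, and SOD1 replicate 3 was the highest for Mt1, Mt2 and the glucocorticoid list but not for the cell type lists.

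The list means of microglial, oligodendrocyte, endothelial and mural, meningeal and motor neuron markers did not overlap between the groups (exact permutation p = 0.1 each, the smallest possible), and that of other neurons did (p = 0.6). Microglial markers (13 genes, median 2.51) had 5 of 17 probe sets called higher, against 0.0629% of all tested. These were of C1qa, Ctss, Tyrobp, Ptprc and Ly86. The microglial list means were 8.66 to 10.13 in WT and 11.85 to 12.50 in SOD1, with summed signals of 10525 to 44631 and 113490 to 214020. Oligodendrocyte markers had a median of 0.54 over 11 genes, with 0 called and summed signals of 194870 to 225160 in WT and 257050 to 277300 in SOD1. Endothelial and mural markers had a median of -1.67 over 12 genes, with 2 of 17 probe sets called lower (Acta2 and Flt1), against 0.122% of all tested. Meningeal markers had a median of -1.55 over 7 genes, with 0 called. Without SOD1 replicate 3 these medians were -1.08 and -0.77. Motor neuron markers had a median of -0.16 over 11 genes (0.055 with median centring, and -0.081 without WT replicate 3) and other neurons 0.45 over 8 (0.069 without SOD1 replicate 3, 1.28 without WT replicate 1), both with 0 called. The part of these cells in the values of the zinc genes was not tested. RNA quality was read from the 3′ minus 5′ control signals, in log2. For Actb they gave 4.78 ± 0.39 (WT) and 4.58 ± 0.34 (SOD1), and for Gapdh 3.83 ± 0.75 and 3.48 ± 0.21 (SD, n = 3; exact permutation p = 0.6 and 0.7).

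Likeness of pattern was measured as the root-mean-square difference between array values over the 6 arrays, after each gene's own mean was subtracted. Among 23111 probe sets with 1 symbol, those nearest to Mt1 (1422557_s_at) were of Mal (0.092 log2 units), Sh3kbp1 (0.13), Hapln2 (0.14), Fam107a (0.14) and Aldoc (0.15). Mt2 ranked 138 for Mt1, at 0.34. The genes nearest to Mt2 were Ctxn3 (0.20), Cenpk (0.24), Stxbp3 (0.27), Sh3kbp1 (0.30) and the pseudogene Ppp4r1l-ps (0.30), and Mt1 ranked 19. Of these, Sh3kbp1 stood near both genes. This is a description over 6 arrays, in which the difference between the groups is itself part of the likeness.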

How the data were processed

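RNA of 3 WT and 3 SOD1 samples was amplified in 2 rounds with T7-based reactions, per the labels, and measured on a mouse array. Each deposited value is the linear signal intensity of 1 probe set on 1 array. All arrays had a 2% trimmed mean of 2500.02, so the arrays had been scaled to a common mean, and the algorithm is not given in the sources used here.

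Arrays were quantile normalised, 16 was added, and log2 taken. The 64 controls and probe sets up to the 40th percentile of mean signal were left out, and limma 3.58.1 in R 4.3.3 (lmFit, eBayes with a variance trend, two-sided) tested the other 27022. The step was tried on simulated data with larger shifts than any tested member difference, so its power at the member differences was not tested. The members and gene lists were chosen with earlier results of these data known. Every member probe set is described, and of each other list the genes past the threshold are named. Up to 3 genes with the smallest p are named for the lists other than those of cell type markers. Other genes, such as Slc17a7, Fkbp5, Tsc22d3, Hspa1a and Hspa1b, and the brightest probe sets, were named after their values were seen. Symbols were checked by Entrez identifier against RefSeq (GRCm38.p6), where 34754 matched and 0 changed. The background level was chosen after seeing the data. Alternatives were other scalings, pseudocounts, filters and variance models, array weights, a replicate block, an Xist term, each array left out, and a gene's mean. Leaving out both SOD1 arrays with high Xist was chosen after seeing the data. Figures used matplotlib 3.10.9.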

Additional observations from a re-analysis of the deposited data

How the results depend on the processing

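The count of member probe sets called was 0 under all 19 alternatives, with 2 to 5 at an unadjusted p under 0.05 by limma, and the lowest adjusted p of any was 0.0948 (Mt2, filter at the 60th percentile). Over 273 values of the tested member probe sets under the alternatives, 13 had the opposite sign. Alternatives that change only the error or the filter repeat the main estimate, so many of these values could not differ in sign. Of 48 plain differences of the 4 below the filter, 2 had it, both of Mtf1 (1452990_at), at 0.22 without WT replicate 1 and 0.0061 without SOD1 replicate 3. Mtf1 (1428979_at) was at -0.017 with the signals left as deposited, -0.056 with array weights and -0.17 to 0.31 with 1 array left out (-0.010 without SOD1 replicate 3). Mtf1 (1418333_at) was at -0.16 with the Xist term and -0.18 with SOD1 replicate 3 as the only SOD1 array, where Slc39a10 (1433751_at) was at -0.033 and -0.059. With 1 array left out, Mtf1 (1429170_a_at) ranged from -0.20 to 1.62, Slc30a3 from -0.010 to 0.67 and Slc39a14 (1425649_at) from -0.093 to 1.52, each lowest without WT replicate 3. Slc39a10 (1439041_at) ranged from -0.039 (without SOD1 replicate 3) to 0.95, and Slc30a1 at 0.33 as the mean of its probe sets. Where an array is left out the fit has fewer samples, and otherwise the cause was not tested.

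Over the whole array the count called moved from 50 to 87 with a pseudocount of 64, 106 with a filter at the 60th percentile, 100 with array weights, 76 with the replicate block, 17 for gene means and 0 without a variance trend (3247 at an unadjusted p under 0.05 by limma). Leaving out 1 array gave 0 to 79: 9 without WT replicate 1, 0 without WT replicate 2 (2659 at an unadjusted p under 0.05), 79 without WT replicate 3, 6 without SOD1 replicate 2 and 29 without SOD1 replicate 3. Among the gene lists, Sgk1 of the glucocorticoid list was the 1 call with the Xist term and the 1 call with SOD1 replicate 3 as the only SOD1 array, which is in effect the same comparison of that array with WT. Leaving out 1 array gave 0 to 1 calls in the copper list (Cp, 1417494_a_at, -3.44 without WT replicate 3). The 3′ minus 5′ difference between groups was 0.018 for Actb under both other scalings, and -0.62 to 0.075 for Gapdh with 1 array left out.

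Deviations of same-numbered WT and SOD1 arrays from their group means correlated at 0.03, -0.04 and -0.01 across probe sets. Arrays of different numbers gave -0.067 to 0.076. These values show no pairing by number, but with 3 arrays per group they cannot exclude one. With the replicate block Mt1 (1422557_s_at) had an adjusted p of 0.153 and Mt2 of 0.163 (limma).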

Other observations

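Genes of copper handling, the other metal that metallothioneins hold, had 4 positive and 5 negative estimates over 9 genes. The median was -0.031 (-0.074 without SOD1 replicate 1, 0.074 without SOD1 replicate 2). Past the threshold were 0 of 21 probe sets, and 4 had an unadjusted p under 0.05 by limma, against 14.7% of all tested. Commd1, a regulator of copper export, read 12.47, 11.83 and 12.01 in WT replicates 1, 2 and 3 and 12.66, 12.92 and 13.51 in SOD1 replicates 1, 2 and 3, a difference of 0.92 ± 0.28 (limma, adjusted p = 0.169; 0.62 ± 0.28 on its dimmer probe set). Cox17, which hands copper to cytochrome oxidase, was at 0.38 ± 0.12 (limma, adjusted p = 0.204), with no overlap of the groups. Ceruloplasmin, Cp, was at -1.67 ± 0.67 on 1 probe set. Its brightest probe set (1417494_a_at) read 12.14 and 11.97 in WT replicates 1 and 2 but 5.36 in WT replicate 3, and 7.76 to 9.13 in SOD1. Ccs, the copper chaperone of SOD1, was at -0.13 ± 0.27, and Atox1 at -0.33 ± 0.21.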
